A study of Oryza sativa with 51 samples.

Results

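The genes described here were silent in rice seedlings under normal water and clearly detected in every library of both drought levels. They were chosen by their measured levels: under 1 TPM (a transcript level scaled for gene length and to the same total in every library) in all 3 normal libraries, and 10 TPM or more in all 3 moderate and all 3 severe drought libraries. Of the 55986 genes listed in each library, 49 met this rule, which is 0.0875%. A total of 36012 genes were silent under normal water, and the 49 were 0.136% of them. Because the rule used the contrast of drought with normal water, the levels in those conditions are a description and carry no test. The rule set no order between the 2 drought levels, and their comparison with each other was tested. It did use their values, however. Left out were 17 silent genes with 10 TPM or more in all moderate but not all severe libraries, and 7 with the reverse.

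The study asked how monoubiquitination of histone H2B (H2Bub1) relates to abscisic acid signalling and drought in rice. RNA was sequenced from seedlings of Zhonghua11, a japonica rice cultivar, harvested at the 4-leaf stage, in 3 groups of 3 libraries: plants under normal water, plants under moderate drought, at a relative soil water content near 20%, and plants under severe drought, near 10%. The drought was progressive, in paddy soil, and all 3 groups are wild type plants of the same line. H2Bub1 was measured by chromatin immunoprecipitation in the same 3 conditions, and in osbzip46 mutant and wild type plants, and is used here through the authors' tables of comparisons. The labels name no organ for the RNA and do not say that replicates came from separate plants, so p-values measure the spread between these libraries, which may be technical.

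Abscisic acid (ABA) is the hormone that plant cells make as they lose water. It blocks a group of protein phosphatases (clade A PP2C), which frees kinases to activate bZIP transcription factors, and these switch on genes for protective proteins. Among the best known of those are the late embryogenesis abundant (LEA) proteins and dehydrins, hydrophilic proteins that also accumulate in drying seeds and that shield membranes and proteins from water loss. Many such genes are nearly off in watered leaves. None of the gene IDs is paired with a name in the files, so names were assigned to 13 of the 49 genes. For 11 of them a RefSeq gene of the same name lies on the same chromosome, with a model length within 14.8%. The other 2 are written as "listed here as". The remaining 36 genes are given by ID only. Of 55 further list and marker genes, named in the same way, 40 had a RefSeq gene of that name on the same chromosome. Among these the model length differed by 278% for the seed marker GLB1 and by 77.6% for RAB25 on the LEA and dehydrin list. The names GLB1 and RAB25 are therefore uncertain.

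Each library implied 8.30 to 10.7 Gb of aligned bases, so that 1 TPM stood for a mean read depth of 5.19 to 6.56 per base, and 19185 to 20012 genes had at least 1 TPM. Severe replicate 3 stood apart by its array weight in limma, which is low for a library that departs from its group. The weight was 0.108, beside 0.613 to 3.88 in the other libraries. Its highest correlation with another library was 0.955, and no such value is given here for the others. Leaf markers (RbcS, CAB2R and a gene listed here as RbcS2) summed to 12232 to 16726 TPM under normal water, 3331 to 4328 TPM in moderate drought and 1698 to 4039 TPM in severe drought, the lowest in severe replicate 3. The 4 root markers summed to 19.1 to 20.7, 14.0 to 15.6 and 15.7 to 23.3 TPM in the same order, with the highest value in severe replicate 3. The 6 seed markers summed to 4.66 to 5.55, 7.97 to 8.52 and 8.27 to 8.96 TPM, and the 2 meristem markers were listed at 0 except for 0.0312 TPM of 1 of them in severe replicate 3. GluA2 made up most of the seed sum and Lsi1 most of the root sum, and other markers differed. In severe replicate 3 LOC_Os03g49190, listed here as the seed marker OLE16, was highest (1.37 TPM), while GluA2 had its lowest drought value (5.87 TPM). That oleosin name could not be checked. Mean IRT1 was 1.65, 0.272 and 0.155 TPM in the same order of conditions, and mean HKT2;1 was 0.114, 2.23 and 2.16 TPM. The part of these marker changes in the results below was not tested. In such whole-tissue samples, fewer cells of a type and less RNA per cell cannot be told apart.

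As a group the 49 genes were a trace of the RNA under normal water and a visible share of it in drought. Their TPM values summed to 10.5, 19.1 and 19.3 in normal replicates 1 to 3, to 2526, 3257 and 2455 in moderate replicates 1 to 3, and to 2805, 2164 and 9294 in severe replicates 1 to 3. That is 0.00105% to 0.00193% of a normal library, 0.245% to 0.326% of a moderate one and 0.216% to 0.929% of a severe one. Moderate drought and the first and second severe libraries thus lay close together, and severe replicate 3 lay far above all others. The median gene had 0.150, 0.382 and 0.358 TPM in the normal libraries, 33.6, 43.5 and 32.2 TPM in the moderate libraries, and 39.9, 34.9 and 91.0 TPM in the severe libraries.

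**Figure D1:**
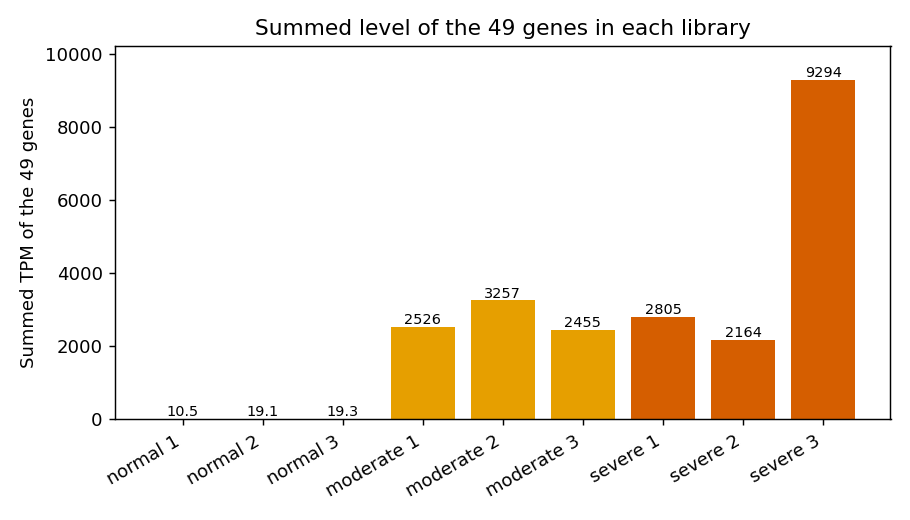
Summed TPM of the 49 genes (vertical axis, TPM) in each of the 9 libraries, 1 bar per library, grouped as normal water, moderate drought and severe drought. The normal bars (10.5 to 19.3) are too low to see on this scale, and severe replicate 3, at 9294, is well above the 2164 to 3257 of the other 5 drought libraries.

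The silence was low-level RNA rather than complete absence for most of the genes. Under normal water 38 of the 49 were above 0 in all 3 libraries, 9 were listed at 0 in 1 library, 2 in 2 libraries and none in all 3. Mean levels over the 6 drought libraries ran from 11.1 to 414 TPM with a median of 56.3. They were at least 100 TPM for 13 genes, between 20 and 100 TPM for 32 and under 20 TPM for 4. On the log2(TPM + 1) scale the median difference from normal water was 4.88 under moderate drought and 5.39 under severe drought, beside 0.20 and 0.22 over the 20642 tested genes, which follows from the choice of members. In the limma fit 39.4% of tested genes were higher in moderate drought than under normal water and 42.1% in severe drought, and nothing is read from the members against that background. All 49 passed the filter on low values, as the rule made certain.

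**Figure D2:**
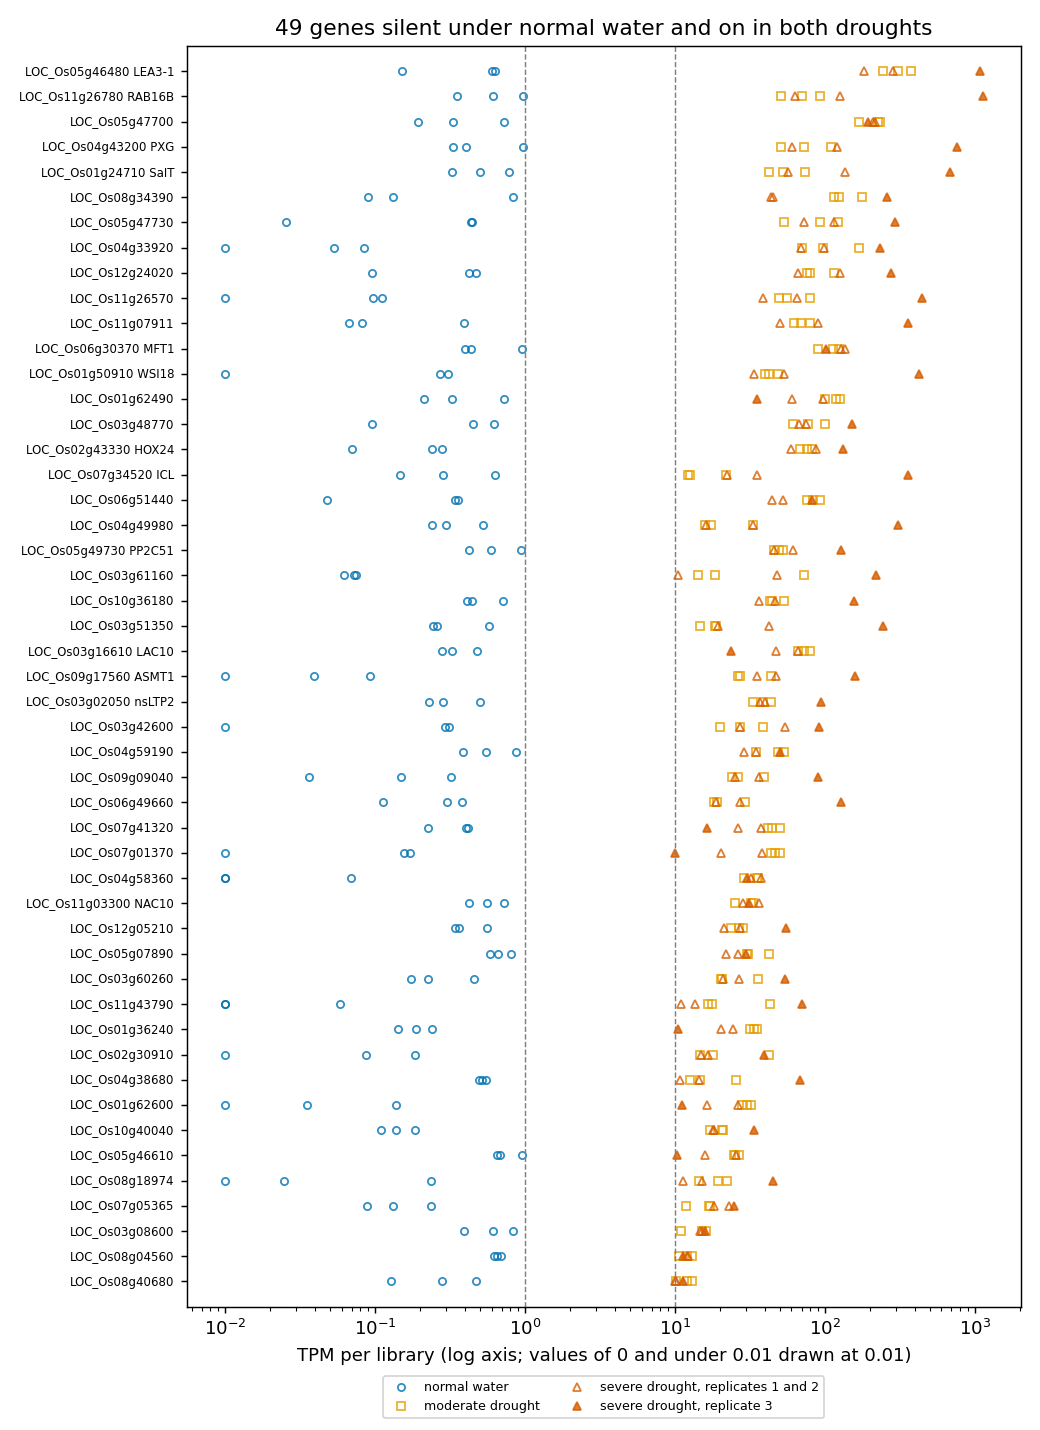
TPM of each of the 49 genes in every library (horizontal axis, TPM on a log scale, with values of 0 and under 0.01 drawn at 0.01), 1 gene per line, ordered by mean drought level. Circles are normal libraries, squares moderate, open triangles severe replicates 1 and 2, filled triangles severe replicate 3. The dashed lines mark the rule's thresholds of 1 and 10 TPM, and the filled triangles lie at the right end for most of the genes at the top and at the left end for a few others.

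Among the named members, 3 were genes of protective proteins of dry tissue. The 36 members without a name were not sorted by kind, so the set may hold more. LEA3-1 (LOC_Os05g46480, chromosome 5, 26927607 to 26928902, plus strand), a group 3 LEA protein gene, was the most abundant of the 49. It had 0.152, 0.605 and 0.634 TPM in the normal libraries, 244, 373 and 308 TPM in the moderate libraries, and 285, 183 and 1092 TPM in the severe libraries. Its moderate and severe libraries overlapped, since severe replicate 2 was the lowest of the 6 and severe replicate 3 the highest. RAB16B (LOC_Os11g26780, chromosome 11, 15336034 to 15337163, minus strand), a dehydrin gene, had 0.354, 0.976 and 0.618 TPM under normal water, 70.6, 92.4 and 51.4 TPM in moderate drought, and 126, 63.3 and 1129 TPM in severe drought. Only severe replicate 3 and, by less, severe replicate 1 were above its moderate libraries. LOC_Os01g50910, listed here as the LEA protein gene WSI18 (chromosome 1, 29233028 to 29234256, minus strand), had 0, 0.270 and 0.307 TPM, then 42.3, 48.6 and 39.9 TPM, then 53.6, 33.6 and 424 TPM in the normal, moderate and severe libraries. It showed the same order as RAB16B among the severe libraries, with replicate 2 lowest and replicate 3 far highest. RAB16B lies in a row of similar RAB16 genes, and how the authors' counting shared reads between such copies was not given in the sources used here, so its split from its neighbours is uncertain.

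The set took in only part of the drought-responsive LEA and dehydrin genes. Of 10 genes on that list, 3 were members, 3 had 1 TPM or more in a normal library and 4 were under 10 TPM in a drought library. LIP9, a dehydrin gene, was too high under normal water, with 29.6, 38.7 and 40.3 TPM there, 112, 97.7 and 97.0 TPM in the moderate libraries and 151, 81.6 and 717 TPM in the severe libraries. RAB16C missed by its normal level of 4.08, 4.59 and 4.88 TPM, and had 23.2, 26.9 and 17.5 TPM in moderate drought and 35.9, 21.3 and 319 TPM in severe drought. RAB16D reached 10 TPM in severe replicate 3 alone. Of the 5 tested genes of the list outside the set, 5 rose in severe drought and 3 in moderate drought against normal water (limma, adjusted p under 0.05, background shares as above).

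Regulators of ABA responses were represented by a phosphatase and by transcription factors. PP2C51 (LOC_Os05g49730, chromosome 5, 28523662 to 28526025, minus strand), a clade A phosphatase that holds ABA signalling in check, had 0.595, 0.427 and 0.937 TPM under normal water, 49.5, 52.4 and 46.2 TPM in moderate drought, and 61.7, 45.8 and 128 TPM in severe drought. It was the only member among the 9 listed clade A genes. The other 8 had 1 TPM or more in a normal library, and 7 of those 8 rose in each drought level against normal water (limma). HOX24 (LOC_Os02g43330, chromosome 2, 26143309 to 26144731, plus strand), a homeodomain-leucine zipper factor gene, had 0.0702, 0.281 and 0.239 TPM under normal water, 68.2, 76.5 and 82.3 TPM in moderate drought, and 87.3, 59.8 and 133 TPM in severe drought. Both genes had similar levels in 5 drought libraries and a higher one in severe replicate 3.

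LOC_Os11g03300, listed here as the stress factor gene NAC10 (chromosome 11, 1233928 to 1236052, plus strand), had 0.427, 0.559 and 0.731 TPM under normal water, 33.0, 25.4 and 32.2 TPM in moderate drought, and 28.7, 36.5 and 31.3 TPM in severe drought. Its 6 drought libraries were interleaved, with severe replicate 3 in the middle. The other 3 listed NAC genes had 1 TPM or more under normal water. MFT1 (LOC_Os06g30370, chromosome 6, 17539922 to 17542480, minus strand), a member of the phosphatidylethanolamine-binding family known in rice for roles in flowering time and seed germination, had 0.398, 0.435 and 0.952 TPM under normal water, 113, 89.9 and 124 TPM in moderate drought, and 128, 137 and 103 TPM in severe drought. Its drought libraries also lay close together and overlapped. None of the 6 listed ABA-related bZIP genes was a member: 4 failed on the normal threshold alone, 1 on the drought threshold alone and 1 on both. Of their 5 tested genes, 5 rose in moderate drought and 4 in severe drought against normal water (limma). Over all pathway lists, 22 of 37 tested non-members rose and 2 fell in moderate drought, and 26 rose and 3 fell in severe drought. Over all tested genes, 39.4% rose and 18.9% fell in moderate drought, and 42.1% rose and 20.6% fell in severe drought.

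Enzymes, lipid-associated proteins and a lectin made up the other named genes. SalT (LOC_Os01g24710, chromosome 1, 13903153 to 13904729, minus strand), which encodes a mannose-binding lectin first known as salt-induced, had 0.327, 0.782 and 0.499 TPM under normal water, 52.9, 73.9 and 42.5 TPM in moderate drought, and 136, 56.9 and 686 TPM in severe drought. PXG (LOC_Os04g43200, chromosome 4, 25563393 to 25565204, minus strand), a peroxygenase of the caleosin family that binds calcium and lipid droplets, had 0.332, 0.971 and 0.402 TPM under normal water, 72.2, 111 and 51.2 TPM in moderate drought, and 120.0, 60.1 and 765 TPM in severe drought. ICL (LOC_Os07g34520, chromosome 7, 20691054 to 20693694, minus strand), isocitrate lyase of the glyoxylate cycle, through which carbon from fatty acids can enter sugar synthesis, had 0.146, 0.637 and 0.284 TPM under normal water, 12.6, 22.1 and 12.3 TPM in moderate drought, and 35.2, 22.2 and 357 TPM in severe drought. ICL had the widest drought range of the 49, with its highest drought library 29.0 times its lowest. In all 3 of these genes severe replicate 3 was far above severe replicates 1 and 2.

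ASMT1 (LOC_Os09g17560), the last enzyme of melatonin synthesis, had 0, 0.0393 and 0.0933 TPM under normal water, 26.4, 43.5 and 27.2 TPM in moderate drought, and 47.0, 35.5 and 158 TPM in severe drought. The lipid transfer protein gene nsLTP2 (LOC_Os03g02050) had 0.231, 0.285 and 0.505 TPM, then 33.3, 43.5 and 38.8 TPM, then 39.9, 36.9 and 94.9 TPM in the normal, moderate and severe libraries. Both repeated the pattern with severe replicate 3 on top. LAC10 (LOC_Os03g16610, chromosome 3, 9167558 to 9170334, minus strand), a laccase, one of the copper oxidases that act on phenolics such as lignin precursors, went the other way: 0.329, 0.279 and 0.483 TPM under normal water, 79.2, 66.2 and 72.6 TPM in moderate drought, and 47.2, 66.2 and 23.8 TPM in severe drought. Severe replicate 3 was its lowest drought library.

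Among the genes without a name, LOC_Os05g47700 (chromosome 5, 27330644 to 27331350, plus strand) was the third most abundant of the 49. It had 0.331, 0.732 and 0.194 TPM under normal water, 227, 235 and 170.3 TPM in moderate drought, and 208, 215 and 195 TPM in severe drought. Its drought libraries stayed within a narrow range, unlike those of LEA3-1 and RAB16B. LOC_Os08g34390 (chromosome 8, 21591002 to 21592039, minus strand) had 0.0901, 0.830 and 0.132 TPM under normal water, 115, 178 and 125 TPM in moderate drought, and 43.8, 45.4 and 259 TPM in severe drought, so its first and second severe libraries were below all moderate ones and the third was above them. LOC_Os05g47730, LOC_Os04g33920, LOC_Os12g24020, LOC_Os11g26570 and LOC_Os11g07911 averaged 119 to 125 TPM over the drought libraries, each with severe replicate 3 highest, at 235 to 445 TPM.

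Severe drought was compared with moderate drought to see whether drier soil moved these genes further. No member passed the limma test in either direction (adjusted p 0.280 to 0.997), against a background of 3 of 20642 tested genes, or 0.0145%. By direction, 0 members were called higher, beside 0.00969% of tested genes, and 0 lower, beside 0.00484%. At an unadjusted p under 0.05 there were 12 members, 3 higher and 9 lower in severe drought, which is 24.5% of members beside 12.5% of all tested genes. The log2 difference of severe minus moderate drought ran from -1.19 to 2.06 over the 49, with a median of 0.23 beside -0.0021 over all tested genes. Without severe replicate 3 it ran from -1.60 to 0.85 with a median of -0.06, and again no member passed. The sign turned for 16 members when that library was left out, 14 of them to negative and 2 to positive. Positive differences were found for 33 of 49 members with all libraries and for 21 of 49 without severe replicate 3, beside 49.6% and 50.5% of all tested genes. A p that misses the threshold does not show that the 2 drought levels were alike: the standard error of the difference ran from 0.10 to 0.97 over the members, with a median of 0.37. The rule also left out silent genes under 10 TPM in any library of either level, so the count of 0 does not speak for those.

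The libraries of the 2 drought levels overlapped for 39 members. All 3 severe libraries were above all 3 moderate ones for 3 members, beside 9.55% of tested genes, and below them for 7 members, beside 10.8%. The 3 higher ones, named here after their values were seen, were ICL, LOC_Os03g51350 and LOC_Os07g05365. For ICL the difference was 2.06 ± 0.86 (log2, SE, limma adjusted p = 0.388) with all libraries and 0.85 without severe replicate 3. LOC_Os03g51350 had 42.5, 19.5 and 246 TPM in the severe libraries, against 18.8, 18.5 and 14.7 TPM in the moderate libraries, a difference of 1.73 ± 0.74 (adjusted p = 0.391, limma) that was 0.71 without severe replicate 3. LOC_Os07g05365 had 23.1, 18.2 and 24.7 TPM in the severe libraries, against 11.8, 17.2 and 16.85 TPM in the moderate ones, and its difference of 0.51 ± 0.16 (adjusted p = 0.326, limma) remained at 0.42 without severe replicate 3.

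The 7 members whose severe libraries all lay below the moderate ones were LAC10, LOC_Os01g36240, LOC_Os01g62490, LOC_Os01g62600, LOC_Os05g07890, LOC_Os07g01370 and LOC_Os07g41320, also named after their values were seen. LOC_Os01g62490 had 60.7, 98.1 and 35.2 TPM in the severe libraries, against 119.7, 101 and 127 TPM in the moderate libraries, a difference of -0.94 ± 0.32 (adjusted p = 0.343, limma). LOC_Os01g36240 had 20.5, 24.5 and 10.5 TPM in severe drought, against 33.6, 35.4 and 31.9 TPM in moderate drought. Its difference of -0.91 ± 0.25 had the lowest adjusted p of the members (0.280, limma). LOC_Os07g01370 had the largest negative difference, -1.19 ± 0.37 (adjusted p = 0.318, limma), with 20.3, 38.2 and 10.0 TPM in severe drought, against 46.4, 43.8 and 50.2 TPM in moderate drought. In LAC10 and in these 3 genes severe replicate 3 was the lowest library, and their differences without it were still negative, at -0.37, -0.57, -0.57 and -0.72 for LAC10, LOC_Os01g62490, LOC_Os01g36240 and LOC_Os07g01370.

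The named stress protein and regulator genes on the lists did not pass the test between the drought levels. SalT differed by 1.65 ± 0.74 (adjusted p = 0.401, limma) and by 0.67 without severe replicate 3. RAB16B differed by 1.57 ± 0.88 (adjusted p = 0.468) and by 0.36 without that library. LEA3-1 differed by 0.34 ± 0.56 (adjusted p = 0.800, limma), which turned to -0.41 without it, and LOC_Os01g50910 by 1.06 ± 0.77 (adjusted p = 0.549, limma), which turned to -0.03. PP2C51 differed by 0.52 ± 0.32 (adjusted p = 0.491, limma), and by 0.11 without severe replicate 3 and 0.84 without severe replicate 2. LOC_Os11g03300 differed by 0.09 ± 0.13 (adjusted p = 0.776, limma). The sizes for the lectin, dehydrin, LEA and phosphatase genes were thus set largely by 1 library.

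**Figure D3:**
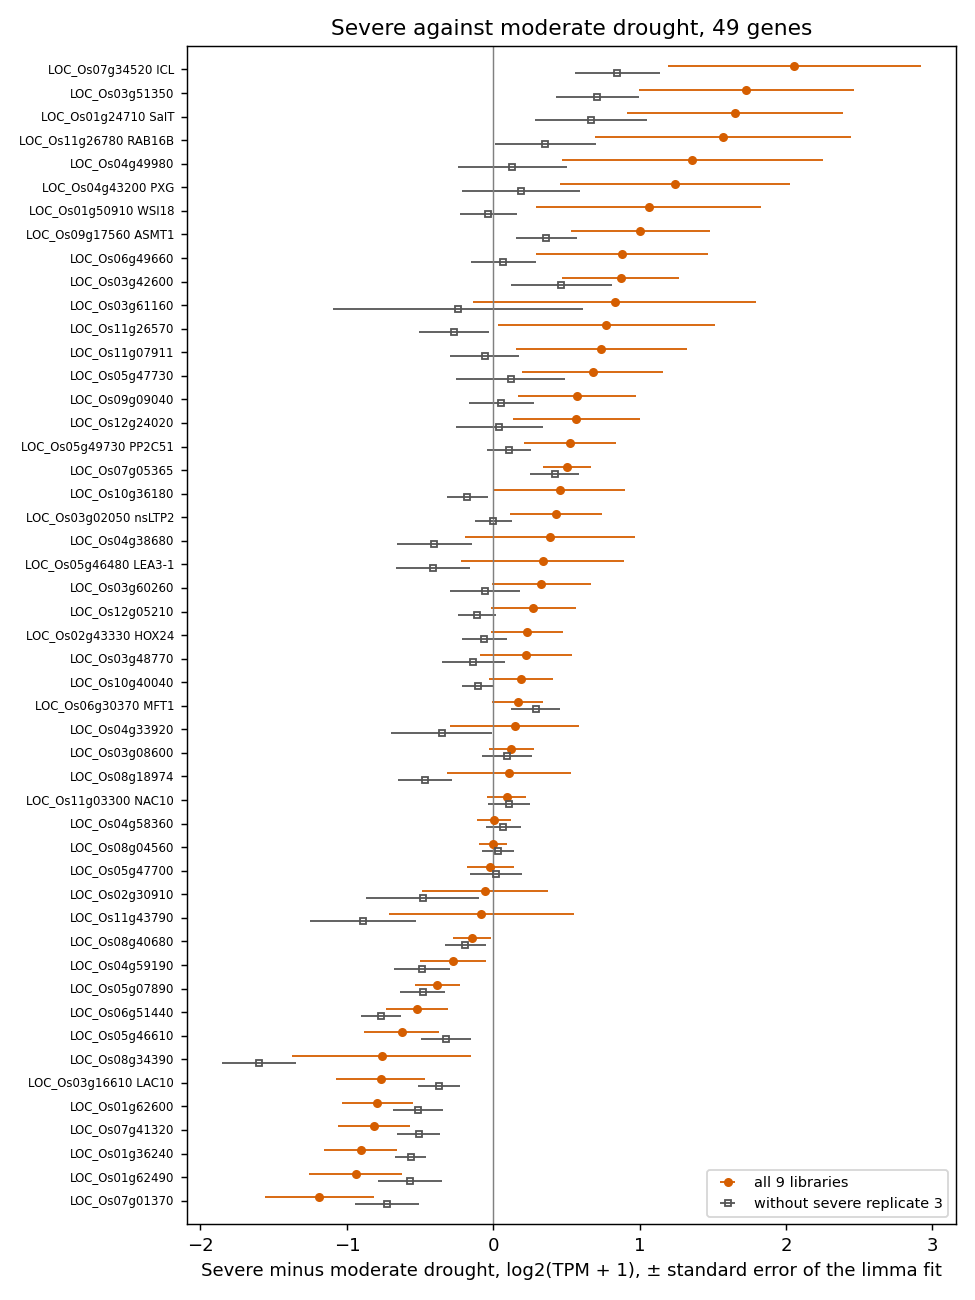
Difference of severe minus moderate drought on the log2(TPM + 1) scale (horizontal axis) for each of the 49 genes, with the standard error of the limma fit as bars. Filled circles use all 9 libraries and open squares leave out severe replicate 3; the circles run from -1.19 to 2.06, and most positive ones move towards 0 or below it when that library is left out.

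The replicates of severe drought differed more than those of moderate drought for the median member, with a coefficient of variation of 57.1% against 19.7%, and the members fell into unlike patterns. No such value over all genes is given here. Severe replicate 3 stood apart as a whole library, with the lowest array weight in limma (0.108), so the contrast is not read as a trait of the members. Severe replicate 3 was the highest of the 6 drought libraries for 31 members (63.3%), against 34.9% of all tested genes and 39.2% of the 10918 genes with 10 TPM or more in every drought library. It was the lowest for 7 members (14.3%), against 35.3% and 34.9%, and lay between for 11. These shares depend partly on the rule, which required 10 TPM or more in severe replicate 3. The rule was missed in that library alone by 5 genes, for which it was therefore the lowest drought library. The 10918 genes passed the same floor in drought. The ratio of severe replicate 3 to the mean of severe replicates 1 and 2 had a median of 2.38 over the 49 and ran from 0.342 to 12.6. Among the 31 genes its median was 3.83, and among the 7 genes it was 0.469. The 7 were LAC10, LOC_Os01g36240, LOC_Os01g62490, LOC_Os01g62600, LOC_Os05g46610, LOC_Os07g01370 and LOC_Os07g41320.

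The moderate libraries, none of which entered that ratio, spread these genes in a similar order. Moderate replicate 2 was the highest of the 3 moderate libraries for 36 of 49 members (73.5%). The share was 32.1% of all tested genes and 35.6% of genes with 10 TPM or more in every drought library. Moderate replicate 2 was the highest for 29 of the 31 genes that peaked in severe replicate 3, and for 1 of the 7 that were lowest there. Severe replicate 1 was above severe replicate 2 for 35 of 49 members (71.4%), against 53.4% of all tested genes. This held for 29 of the 31 and for 0 of the 7. Across the 49 genes the severe replicate 3 ratio and the ratio of moderate replicate 2 to the mean of moderate replicates 1 and 3 had a Spearman correlation of 0.729 and a Pearson correlation of 0.668, beside 0.184 and 0.221 over all tested genes. These are descriptions across genes measured in the same libraries, which are not independent of each other. The pattern was not particular to members. RAB16C and LOC_Os11g26790, listed here as RAB16A, lay outside the set and also had moderate replicate 2 highest of the moderate libraries. In both, severe replicate 1 was above severe replicate 2 and severe replicate 3 was highest. LIP9, also outside the set, had moderate replicate 1 highest of the moderate libraries. Members that were steady between replicates included LOC_Os05g47700, MFT1 and LOC_Os11g03300, whose severe replicate 3 ratios were 0.920, 0.776 and 0.958.

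**Figure D4:**
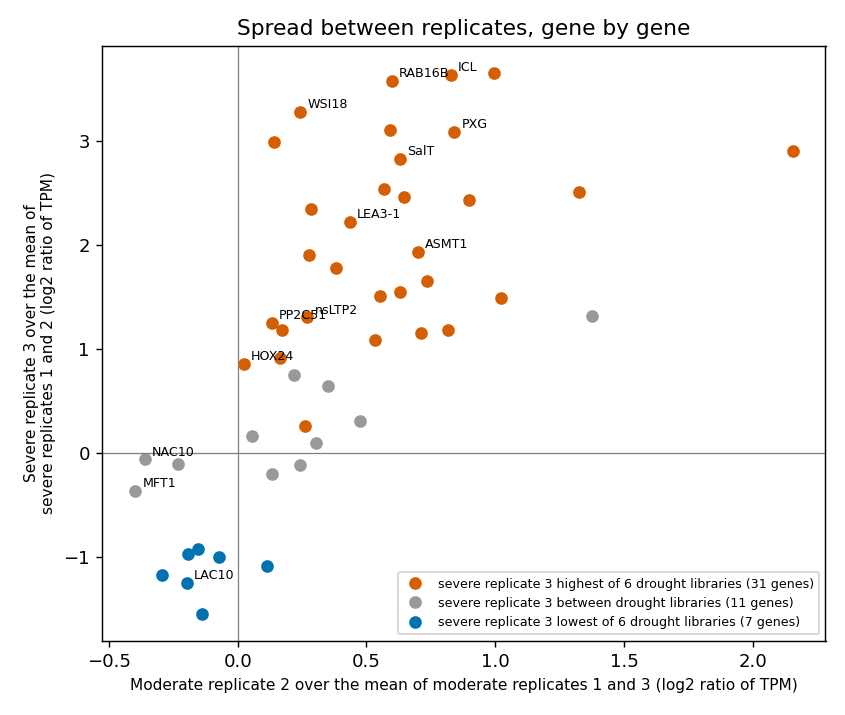
Each point is 1 of the 49 genes: the vertical axis is the log2 ratio of severe replicate 3 to the mean of severe replicates 1 and 2, the horizontal axis the log2 ratio of moderate replicate 2 to the mean of moderate replicates 1 and 3. Orange marks the 31 genes with severe replicate 3 highest of the drought libraries, grey the 11 between and blue the 7 with it lowest; orange points lie at the upper right and 6 of the 7 blue points at the lower left.

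H2Bub1, a mark found over transcribed genes, was looked up at these genes in the authors' deposited tables. In the authors' deposited table for moderate drought against normal water, 1 of the 49 members had a region, beside 1335 of all listed genes (2.38%) and 6.11% of the genes tested for RNA. The members are silent under normal water by rule, so a count of regions at silent genes is given as well. It is not a matched background, since 35939 of those genes reached 10 TPM in all libraries of neither drought level. No share of silent genes with a region is given here. At the 36012 genes silent under normal water that table held 84 regions. Of these regions 14 were higher in moderate drought, at 14 genes. The member with a region was PP2C51. Its region, chromosome 5 from 28524702 to 28525201, lay inside the gene model, with its near edge 824 bases from the start. In the authors' deposited table the region had a log2 concentration of 6.39 in moderate drought and -0.06 under normal water, a log2 fold change of 6.44 with an FDR of 2.41e-08. The normal value of -0.06 was the lowest in the authors' deposited table and was shared by 19 regions. By log2 fold change the region was number 7 of the 224 regions, of 1395 in the authors' deposited table, that were higher in moderate drought.

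No member appeared in the authors' deposited table for severe drought against normal water, which held 869 genes (1.55% of listed and 4.02% of tested genes). None appeared in the authors' deposited table of regions in the osbzip46 mutant against wild type under drought (511 genes, 0.913% of listed and 2.25% of tested genes), nor in the authors' deposited table of genes from that comparison (1265 genes, 2.26% of listed and 6.002% of tested genes). The moderate and severe tables list only regions below an FDR of 0.05, so a gene that is not listed may carry the mark at a level that did not pass, while the table of mutant regions also holds FDR values up to 0.975. A region lay within 10 kb of 5 members in the moderate table, 2 in the severe table and 0 in the mutant table, all from the authors' deposited tables. No share over all genes is given for this distance, and the tables hold unlike numbers of regions. Nothing is therefore read from these counts.

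The 49 gene models were short and scattered. Their median length from first to last base was 1572 bases, against 3356 for all tested genes and 3764.5 for genes with 10 TPM or more in every drought library. Models under 1000 bases made up 26.5% of members and 9.34% of tested genes. They lay on all 12 chromosomes, from 2 to 8 genes on each, with 8 on chromosome 3. No member's model overlapped another listed model, against 5.93% of tested genes.

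Within 200 kb of each other lay 4 pairs of members. LOC_Os05g47700 and LOC_Os05g47730 were 14.4 kb apart, with 2 models between them that were both too low to be tested. LEA3-1 and LOC_Os05g46610 were 58.4 kb apart, LOC_Os01g62490 and LOC_Os01g62600 56.7 kb, and RAB16B and LOC_Os11g26570 111 kb. The pair on chromosome 1 shared its replicate pattern, since both genes were lowest in severe replicate 3. LEA3-1 and LOC_Os05g46610 did not, as LEA3-1 was highest there and LOC_Os05g46610 lowest.

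The edges of the set were close to the thresholds. Just inside the normal threshold were RAB16B, PXG and MFT1, with highest normal values of 0.976, 0.971 and 0.952 TPM. Just outside it were LOC_Os04g19740, LOC_Os11g02240 and LOC_Os06g37150, at 1.01, 1.02 and 1.06 TPM. Just inside the drought threshold were LOC_Os07g01370, LOC_Os08g40680 and LOC_Os05g46610, with lowest drought values of 10.0, 10.1 and 10.4 TPM, and just outside it were LOC_Os08g08440, LOC_Os09g21120 and LOC_Os08g19420, at 9.99, 9.87 and 9.40 TPM. In all, 23 genes missed the rule in 1 library only, 8 of them in normal replicate 2, 7 in normal replicate 3 and 5 in severe replicate 3.

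The choice could also be made without a library and then looked up in it. Chosen without severe replicate 3, 54 genes qualified, and 49 of them had 10 TPM or more in that library. Chosen without normal replicate 2, 57 genes qualified and 49 were under 1 TPM in it, and without normal replicate 3, 56 qualified and 49 were under 1 TPM. Leaving out any other library gave 49 or 50 genes, of which 49 met the rule in the library left out. Genes that also meet the rule in the library left out are by definition the 49 members. That count could not differ, and only the number chosen describes the data. By drought level, 66 silent genes had 10 TPM or more in all moderate libraries and 56 in all severe libraries. Of the 17 that reached it in all moderate but not all severe libraries, 5 fell short only in severe replicate 3. In turn, 148 silent genes reached 10 TPM in severe replicate 3 and in neither severe replicate 1 nor severe replicate 2.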

How the data were processed

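The authors deposited, per the file headers, a TPM value, an FPKM value and a coverage for each gene in 9 RNA libraries, and tables of H2Bub1 comparisons with log2 concentrations, log2 fold changes, p-values and FDR values per region. Read counts were not used here. HISAT2 2.0.5, Bowtie2 2.3.4, MACS2 2.1.1 and DESeq2 1.20.0 are named, without roles, in the submitters' processing notes; the counting program and the genome build are not given in the sources used here, so coordinates follow the files. Aligned bases were implied by the ratio of the deposited coverage to FPKM, and no read counts stand behind a TPM value, so no counting interval is given. A gene listed more than once in a library was summed.

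Log2(TPM + 1) values of the 20642 genes that reached 1 TPM in 3 or more libraries were fitted in limma 3.58.1 (R 4.3.3, statmod 1.5.0; lmFit, eBayes with trend and robust), with 1 model over 9 libraries, two-sided tests and Benjamini-Hochberg adjusted p under 0.05. This scale understates changes of low genes. The script was tested on simulated data. Rose and fell refer to genes past that threshold. H2Bub1 regions were matched to genes by the gene ID in the authors' tables.

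The members, the gene lists and the tests were chosen with earlier results of these data known. Named with values were the 12 members with the highest drought mean, members on the lists, members with an H2Bub1 region, the genes next to each threshold, and members with a name. Of the 13 names, 7 were added after values were seen, and genes outside these criteria are said to be named after their values were seen. No promoter or protein sequences matched to these IDs were used, so planned motif and protein descriptions were not made. Alternatives were other thresholds, FPKM, pseudocount, no filter, other scalings, array weights, a replicate block, the 6 compared libraries only, and leaving out each library. Single ChIP libraries were not analysed here.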

Additional observations from a re-analysis of the deposited data

How the results depend on the processing

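The rule's thresholds decided the size of the set: 26 genes met it with a normal threshold of 0.5 TPM, 88 with 2 TPM, 86 with a drought threshold of 5 TPM and 29 with 20 TPM. With FPKM in place of TPM 48 genes met it, 33 of them shared with the 49. Median-of-ratios scaling gave 43 and quantile normalization 42, all among the 49, and leaving out 1 library gave 49 to 57. In severe against moderate drought, 3 of all tested genes passed, against 1 without the filter on low values, 1 with median-of-ratios scaling and 28 with array weights. Leaving out 1 drought library gave 1 to 11 genes, with 1 without moderate replicate 3 and 11 without severe replicate 3. With the replicate number as a block 1 gene passed and 0 members; same-numbered libraries deviated with correlations of -0.26 to 0.14, so the numbers were not read as pairs. No member passed in any of the 13 alternative fits (limma); at an unadjusted p under 0.05 there were 6 to 25 members, and the lowest adjusted p was 0.0674, for LOC_Os01g36240 with array weights. Differences under these alternatives were followed for 18 of the 49 members, and 5 of 234 turned sign. The 18 were the 6 members on the lists and the 12 at an unadjusted p under 0.05 in the main fit (limma). They were thus chosen partly by the same difference and do not stand for all members. Over all 49, 16 turned sign without severe replicate 3. Leaving out 1 drought library gave -0.0332 (without severe replicate 3) to 1.77 for LOC_Os01g50910. It gave -0.41 (without severe replicate 3) to 0.87 for LEA3-1 (LOC_Os05g46480), and -0.025 (without moderate replicate 2) to 0.17 for LOC_Os11g03300. LEA3-1 was also at -0.11 with array weights, and LOC_Os11g03300 at -0.0014 without severe replicate 2. The cause of these turns was not tested. TPM tables carry no counts, so the precision of values under 1 TPM is not known.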
